A study of Mus musculus with 7 samples.

Results

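Acute phase proteins are secreted proteins whose production rises in inflammation, and several of them act on metals or on iron-scavenging molecules. The 10 genes described here are the ferroxidase Cp, the siderophore-binding lipocalin Lcn2, the serum amyloid A genes Saa1, Saa2 and Saa3, the hemoglobin-binding protein Hp, the carrier glycoprotein Orm1, the secreted protease inhibitor Slpi, the transferrin receptor Tfrc and the iron exporter Slc40a1. A gene was measured where a transcript cluster, the array's unit of 1 summarised transcript locus, carried its symbol and no other. This held for 9 of the 10 genes among 65770 transcript clusters, and each had a single such cluster. Slpi had no cluster that carried its symbol alone and has no value here.

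RNA came from HM-1 cells, a mouse ovarian cancer cell line grown in culture, as the labels and methods describe it. The study's results text also calls these samples tumors. HM-1-control cells carried a non-silencing hairpin (3 arrays). HM-1-shSnail cells were stably transduced by lentivirus with 1 of 2 hairpins against Snail, sh1 (2 arrays) or sh2 (2 arrays), and the study compared these 4 arrays as 1 group. All arrays were labelled as biological replicates of 1 cell line, whether from separate cultures was not stated, and the p-values measure only the spread between these arrays.

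The hairpins were designed against the following 19-base stretches of the Snail transcript, shown because each hairpin is compared with the same controls.
sh1 target: agtttattgatattcaata
sh2 target: tggttaatttatatactaa

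The targeted gene itself did not separate the arrays. Snai1, which encodes Snail, read 6.61, 6.69 and 6.70 in log2 signal in control cells, 6.80 and 6.55 in the sh1 line and 6.69 and 6.77 in the sh2 line, a difference of 0.03 (SE 0.07, adjusted p = 0.852). The groups overlapped and the mean stood above 85.6% of the negative control probes, under the 95th percentile that is taken as the background line here (7.97), so the array does not check the labels, and shSnail below means the arrays labelled so. Vim and Krt8, Krt18 and Krt19 were well above background, while Krt7, Epcam, Cdh1, Pax8, Wt1, Muc16 and Msln were not. In Krt18 every shSnail array lay over every control array, beside 5.08% of all clusters, and in Msln under it, beside 4.01%. Neither passed (adjusted p = 0.335 and 0.505). None of 9 measured hepatocyte markers and 1 of 9 leukocyte markers (Cd68) had a mean above the 95th percentile of the negative controls. The summed log2 signal of the 9 leukocyte markers was 40.64 to 41.28 on control arrays and 39.55 to 40.01 on shSnail arrays, and Cd68 fell by 1.14 (adjusted p = 0.0456); its part in the results below was not tested. The summed log2 signal of 8 mesenchymal markers was 56.80 to 57.17 on control arrays and 57.93 to 58.95 on shSnail arrays. Of the list's genes above background, Vim differed by 0.01 (adjusted p = 0.714), while Fn1, fibronectin, read 13.25, 13.39 and 13.09 in control cells and 14.09 to 14.87 in shSnail cells without passing (difference 1.14, adjusted p = 0.117); the part of these genes was not tested either. The median of the negative controls was 4.83 to 4.86 on control arrays and 4.92 to 5.20 on shSnail arrays. Centred on these medians, the differences described below were -2.35 for Cp and -1.63 for Lcn2.

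In the acute phase response, cytokines of the interleukin-1 and interleukin-6 families act on cells, classically hepatocytes, through NF-κB, STAT3 and C/EBP transcription factors, and these switch on the genes of secreted defence proteins. Iron is withheld from microbes in the same response. Cp oxidises iron as it leaves the cell through Slc40a1 (ferroportin), so that transferrin can carry it, Tfrc takes iron-loaded transferrin back into cells, Hp and Lcn2 capture hemoglobin and bacterial siderophores, and the serum amyloid A proteins travel with lipoproteins. Tumour epithelial cells can also make Cp, Lcn2 and Slpi.

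The sequences upstream of these genes carried recurring C/EBP letters. RefSeq promoters (GRCm38.p6, 250 bases before each start) were found for 7 of the 10 genes, with 9 start sites among them. The C/EBP consensus TTGCNNAA, read on both strands, occurred in 6 of the 9 windows and in 6 of the 7 genes, against 9.56% of 32851 windows of the same length. The STAT consensus TTCNNNGAA and the κB consensus occurred in 0 of the 9, against 7.02% and 3.9% of all windows. The general E-box CANNTG occurred in 6 of the 9 (66.2% of all windows), and the E-box CAGGTG, the form that Snail prefers and a subset of CANNTG, in 4 of the 9 (17.2%), but in neither Cp window and not in Lcn2. The windows are not independent. The Cp windows overlap each other and share an E-box, and the Tfrc windows overlap too. Saa1 and Saa2 share the letters of their C/EBP and CAGGTG matches, so the counts against all windows are a description only. These are matches of letters, not measured binding.

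Shown first is the whole Lcn2 window (minus strand, chr2:32387740-32387989), because Lcn2 is 1 of the 2 genes that fell; capitals mark the C/EBP match, which starts 216 bases before the transcript.
Lcn2 promoter: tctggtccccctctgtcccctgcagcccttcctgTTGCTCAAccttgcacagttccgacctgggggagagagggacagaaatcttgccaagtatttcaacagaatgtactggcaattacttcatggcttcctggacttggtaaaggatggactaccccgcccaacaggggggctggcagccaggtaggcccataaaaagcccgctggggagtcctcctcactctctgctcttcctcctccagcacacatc

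For the other 5 genes with a match, the 30 bases around it are shown to set Cp, which fell, beside the serum amyloid A genes, which did not. The control means of Saa1, Saa2 and Saa3 stood above only 53.06%, 35.77% and 33.05% of the negative controls, so background limits this contrast. The stretches lie at chr3:19957168-19957197 (plus strand, upstream of the second of 2 Cp starts), chr7:46743144-46743173 (minus), chr7:46751639-46751668 (plus), chr7:46715757-46715786 (minus) and chr2:164356728-164356757 (minus), in the order printed, and the matches start 70, 182, 183, 99 and 241 bases before the transcript.
Cp: attagttactcTTTTGCAAcattaaattgt
Saa1: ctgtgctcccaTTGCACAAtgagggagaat
Saa2: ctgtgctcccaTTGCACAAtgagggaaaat
Saa3: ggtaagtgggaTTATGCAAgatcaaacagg
Slpi: gaatttgtaTTGAGCAAtaggttagagttt

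Of the 9 measured genes, Cp and Lcn2 were lower in HM-1-shSnail cells and none was higher. Over all clusters, 0.432% were called lower and 0.21% higher by the same test (limma, Benjamini-Hochberg adjusted p under 0.05 over 65770 clusters). The median log2 fold change was -0.02 over the 9 genes and 0 over all clusters. In 3 genes, Cp, Lcn2 and Saa3, every shSnail array lay under every control array, against 4.01% of all clusters, and in 0 genes over every control array, against 5.08% of all clusters. Cp and Lcn2 were already known to differ in these data when the genes were chosen, so their calls are not independent support. Only Cp and Tfrc had a mean signal above the 95th percentile of the negative controls, and the other 7 did not.

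Cp, the copper-containing ferroxidase of plasma, changed the most. Its log2 signal was 10.32, 10.65 and 10.22 in HM-1-control cells, 8.16 and 8.18 with sh1 and 8.52 and 8.15 with sh2. Every shSnail array lay more than 1 unit below the lowest control array, and the first sh2 array was the highest of the 4. The means were 10.40 ± 0.22 (SD, n = 3) and 8.25 ± 0.18 (SD, n = 4), a difference of -2.14 (SE 0.14, 95% interval -2.49 to -1.79), or 4.42-fold lower (adjusted p = 0.00831). The mean level stood above 98.6% of the negative controls in control cells and above 96.1% in shSnail cells, and 6 of the 7 arrays exceeded the 95th percentile of their own negative controls. Without the first control array, the adjusted p was 0.0517 and the difference -2.18.

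Lcn2, which binds bacterial siderophores and is stored in neutrophil granules as well as made by epithelia, was the other gene that fell. Its log2 signal was 5.05, 5.69 and 5.63 in control cells, 4.11 and 4.08 with sh1 and 3.999 and 3.95 with sh2. The groups did not overlap, and the shSnail arrays lay within 0.16 of each other while the first control array was lower than the other two. The means were 5.46 ± 0.36 (SD, n = 3) and 4.04 ± 0.07 (SD, n = 4), a difference of -1.42 (SE 0.17, 95% interval -1.83 to -1.01, adjusted p = 0.038). Both levels were in the range of background: the control mean stood above 62.7% of the negative controls and the shSnail mean above 24.5%, so no linear fold is given. The call passed without the first control array (adjusted p = 0.0172) and was lost when any of the other 6 arrays was left out (0.113 to 0.127).

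**Figure D1:**
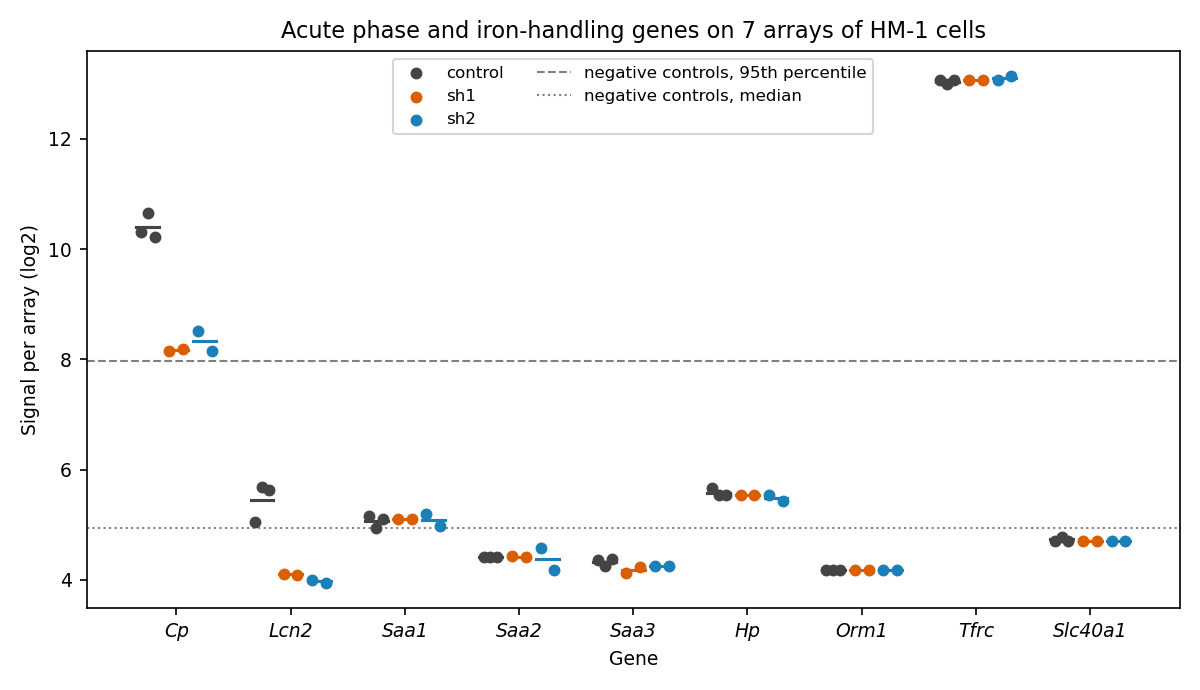
Log2 signal of the 9 measured genes on each of the 7 arrays (points: control grey, sh1 orange, sh2 blue; short bars: group means), with the median (dotted) and 95th percentile (dashed) of the negative control probes. Cp falls from 10.22 to 10.65 in control cells to 8.15 to 8.52 in shSnail cells, Lcn2 lies near the negative control median, and Tfrc stays between 12.99 and 13.14.

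The serum amyloid A genes encode apolipoproteins that rise steeply in plasma during inflammation, and their signals stayed near background. Saa1 read 5.17, 4.94 and 5.10 in control cells, 5.10 and 5.10 with sh1 and 5.19 and 4.98 with sh2 (difference 0.02, 95% interval -0.15 to 0.20, adjusted p = 0.921). Saa2 read 4.42 in all 3 controls, 4.43 and 4.42 with sh1 and 4.58 and 4.18 with sh2 (difference -0.02, 95% interval -0.25 to 0.21, adjusted p = 0.984). In both genes the groups overlapped, and for Saa2 the lowest and highest of the 7 values were the pair of sh2 arrays. Saa1 and Saa2 are close paralogs, and whether their probes share targets was not checked. Saa3, the member made mainly outside the liver in mice, read 4.36, 4.26 and 4.37 in control cells, 4.12 and 4.24 with sh1 and 4.25 and 4.25 with sh2. Its groups did not overlap, but the nearest control and shSnail arrays were 0.01 apart and the difference of -0.12 (95% interval -0.23 to -0.0048) did not pass (adjusted p = 0.486).

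Hp and Orm1, plasma proteins made mainly by the liver, gave nearly constant values. Hp, which captures free hemoglobin, read 5.67, 5.54 and 5.54 in control cells, 5.54 and 5.54 with sh1 and 5.54 and 5.44 with sh2 (difference -0.07, 95% interval -0.18 to 0.04, adjusted p = 0.632). Orm1, a carrier of small molecules in plasma, read 4.17 on all 7 arrays. In 6 of the 9 genes at least 3 arrays held the same value to every deposited digit. In 3 of the 9 genes at least 5 arrays did, against 22.55% of all clusters.

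Neither of the genes that move iron across the plasma membrane passed. Tfrc, which brings transferrin-bound iron into the cell, read 13.06, 12.99 and 13.06 in control cells, 13.06 and 13.06 with sh1 and 13.07 and 13.14 with sh2, above 99.3% of the negative controls. The groups overlapped, and the difference was 0.05 (95% interval -0.02 to 0.12, adjusted p = 0.629). Slc40a1, the only known exporter of cellular iron, read 4.71 on 6 arrays and 4.78 on the second control array, all below the median of the negative controls (difference -0.02, 95% interval -0.07 to 0.02, adjusted p = 0.657).

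Each hairpin was then compared with the controls on its own. Cp differed by -2.23 with sh1 (95% interval -2.68 to -1.77, adjusted p = 0.0514) and by -2.06 with sh2 (95% interval -2.51 to -1.61, adjusted p = 0.0308). Lcn2 differed by -1.36 with sh1 (adjusted p = 0.162) and by -1.48 with sh2 (adjusted p = 0.0677). With sh1, 0 of the 9 genes were called lower or higher, against 0.0821% and 0.0517% of all clusters, and with sh2, Cp alone was called lower and 0 genes higher, against 0.477% and 0.809%. Before adjustment, p was under 0.05 with sh1 for 2254 lower and 2570 higher clusters. Both comparisons use the same 3 control arrays, so they are not independent of each other. Between the hairpins themselves, the difference (sh2 minus sh1) was 0.17 for Cp (95% interval -0.33 to 0.66, adjusted p = 0.86) and -0.12 for Lcn2 (95% interval -0.73 to 0.49, adjusted p = 0.968). No member and 0% of all clusters passed in that comparison (limma; before adjustment, p was under 0.05 for 1487 lower and 2463 higher clusters), and the intervals do not show that the hairpins act alike.

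**Figure D2:**
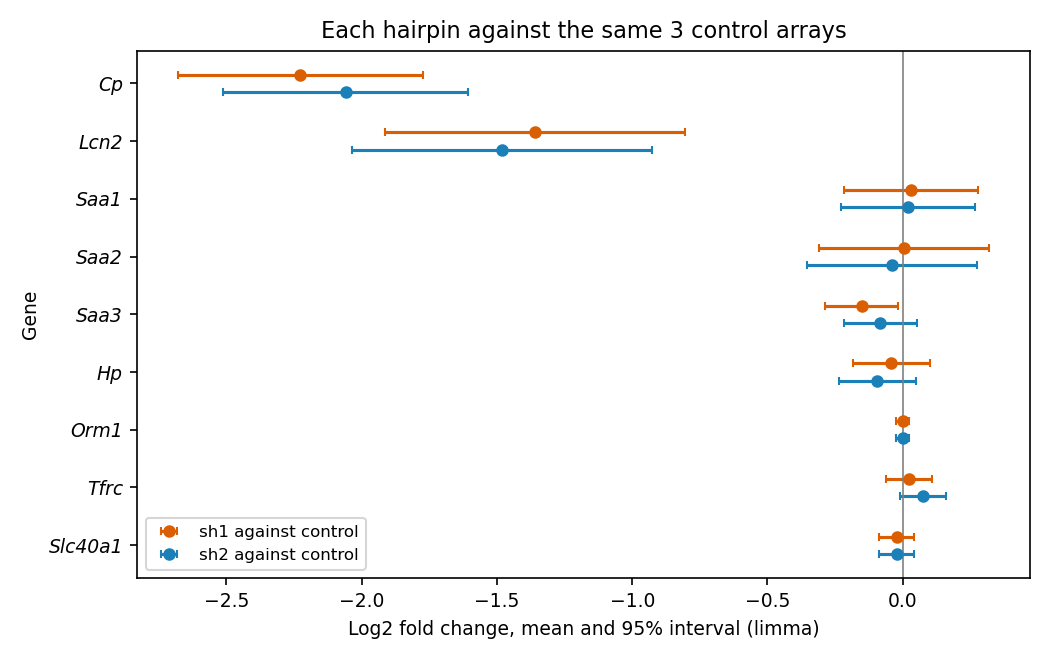
Log2 fold change of each gene with sh1 (orange) and sh2 (blue) against the same 3 control arrays (points: estimates; bars: 95% intervals from limma with 3 groups). Cp (-2.23 and -2.06) and Lcn2 (-1.36 and -1.48) lie apart from 0 with both hairpins, and the other 7 genes lie between -0.15 and 0.08.

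The wider iron machinery of the cell was followed with 29 further genes, all measured, of which 14 were above the 95th percentile of the negative controls. Only Slc11a2 (DMT1), which carries ferrous iron across the endosomal and apical membrane, passed, and it was lower. Of the others, 0 were higher and 28 did not pass, beside 0.432% of all clusters called lower and 0.21% higher. The median log2 fold change was 0. Slc11a2 read 9.30, 9.32 and 9.28 in control cells, 8.71 and 8.65 with sh1 and 8.62 and 8.91 with sh2 (difference -0.57, SE 0.07, adjusted p = 0.0465). The groups did not overlap, but the call was lost when any array other than the second sh2 array was left out (adjusted p 0.0157 to 0.181 over the 7). It was not called with either hairpin alone (adjusted p = 0.14 with sh1 and 0.0942 with sh2) or with 3 groups (0.0617). The iron store and its carrier were abundant in both groups. Fth1 and Ftl1, the ferritin subunits, differed by 0.04 (adjusted p = 0.635) and 0.19 (adjusted p = 0.488), and Trf, transferrin itself, had means of 15.95 and 16.40 (difference 0.45, adjusted p = 0.373).

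In 4 of the 29 iron genes every shSnail array lay under every control array (Slc11a2, Steap3, Slc39a8 and Fbxl5), and in 3 over every control array (Ftl1, Hmox1 and Flvcr1), beside the 4.01% and 5.08% of all clusters. Hmox1, heme oxygenase, was named after its values were seen: it read 10.38, 10.16 and 10.70 in control cells, 11.37 and 11.51 with sh1 and 11.13 and 11.64 with sh2. The difference of 1.00 (SE 0.17) did not pass (adjusted p = 0.105). Ltf, a neutrophil relative of transferrin, and Heph, the membrane-bound relative of Cp, were below the negative control median, at 4.20 to 4.21 and at 3.83 on every array.

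**Figure D3:**
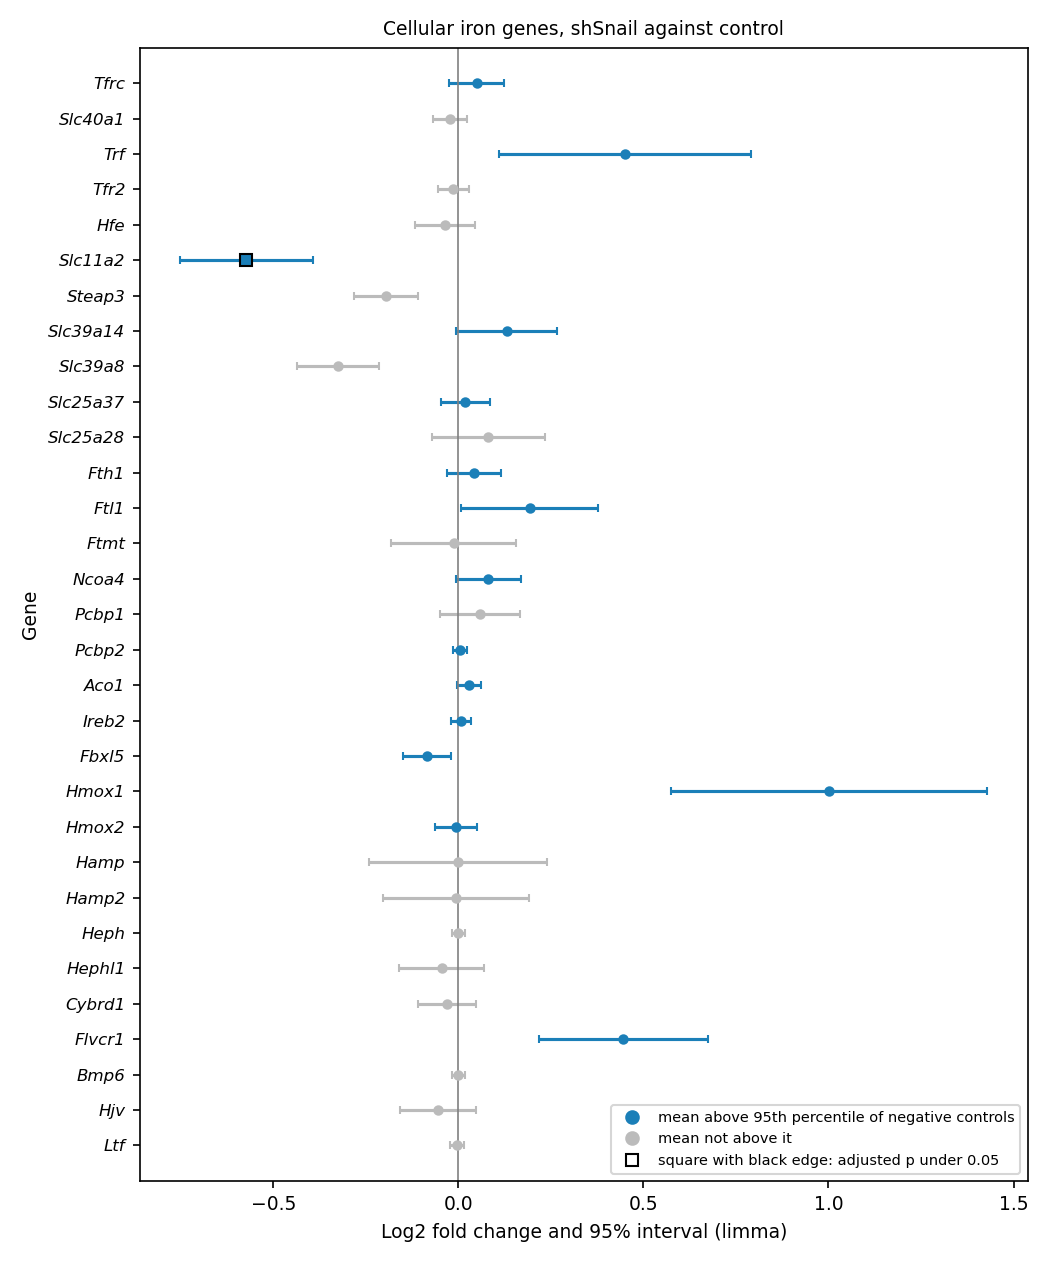
Log2 fold change (shSnail against control, bars: 95% intervals from limma) of Tfrc, Slc40a1 and 29 further genes of cellular iron handling, in blue where the mean signal exceeds the 95th percentile of the negative controls and in grey where it does not. Slc11a2 (-0.57, square) is the only gene past the adjusted threshold; Hmox1 (1.00) and Flvcr1 (0.45) lie to the right without passing.

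Because Cp carries copper, 13 genes of copper handling were examined, and 0 were lower or higher (median log2 fold change 0). Beside this list and those that follow, 0.432% of all clusters were called lower and 0.21% higher. The metallothioneins Mt1 and Mt2, which bind copper and zinc, had differences of 0.06 and -0.13 (adjusted p = 0.646 and 0.651), and the copper importer Slc31a1 had a difference of -0.02 (adjusted p = 0.679). In 2 of the 13 every shSnail array lay under every control array (Slc31a2 and Sod3), beside 4.01% of all clusters. In 1 (Ccs) every shSnail array lay over it, beside 5.08%. Slc31a2, given values after these were seen, had the largest difference of the copper list, -0.49, and did not pass (adjusted p = 0.0758). Of 21 measured other acute phase proteins, 0 were lower or higher, 3 were above the 95th percentile of the negative controls (Mt1, Mt2 and Cd14), and the median was -0.02. In 1 of the 21 (Lbp) every shSnail array lay over every control array, beside 5.08% of all clusters, and in 0 under it, beside 4.01%. Lbp was named after its values were seen. Its means of 4.42 in control and 4.80 in shSnail cells were below the negative control median (difference 0.38, adjusted p = 0.1135). Cd14, a co-receptor for endotoxin, had a difference of 0.12 (adjusted p = 0.526). Among 12 measured relatives and protease partners of Slpi, 0 passed. In 1 of the 12 (Wfdc2) every shSnail array lay over every control array, beside 5.08% of all clusters, and in 0 under it, beside 4.01%. Wfdc2, the ovarian cancer marker HE4, read 11.54, 11.66 and 11.68 in control cells, 11.90 and 11.86 with sh1 and 11.78 and 11.98 with sh2 (difference 0.26, adjusted p = 0.201).

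Inducers and transcription factors of the acute phase response included 2 genes that fell among 21 measured, with 0 higher and 19 not passing (median -0.04). By the same test, 0.432% of all clusters were called lower and 0.21% higher. Nfkbiz, which encodes IκBζ, a nuclear cofactor of NF-κB that acts at the Lcn2 gene, read 8.47, 8.52 and 8.40 in control cells, 5.96 and 6.24 with sh1 and 6.10 and 6.33 with sh2 (difference -2.30, SE 0.09, adjusted p = 0.00296). The groups lay far apart, and the call passed without any 1 array (adjusted p 0.00703 to 0.0312) but not with the replicate number as a block (0.0618). It was called lower with each hairpin, at -2.36 with sh1 (adjusted p = 0.0295) and -2.25 with sh2 (adjusted p = 0.0203). The mean in control cells exceeded the 95th percentile of the negative controls and that in shSnail cells did not.

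Lif, an interleukin-6 family cytokine that induces acute phase genes, read 10.84, 10.79 and 10.57 in control cells, 9.65 and 9.69 with sh1 and 9.58 and 9.89 with sh2 (difference -1.03, SE 0.10, adjusted p = 0.0204). The groups did not overlap, and the call was lost without any of 5 arrays (adjusted p 0.0397 to 0.101 over the 7). Il6, Il1b and Tnf, the classical inducers, read 3.53 to 3.97 on every array, below the negative control median, and differed by 0.04, 0.00 and -0.07. Il6st, the shared receptor subunit gp130, was called lower with sh1 (-0.23, adjusted p = 0.0324) and with sh2 (-0.13, adjusted p = 0.0376) but not with both hairpins as 1 group (-0.18, adjusted p = 0.118); it was named after its values were seen. Stat3 and Cebpb, the factors named above, differed by -0.03 (adjusted p = 0.639) and -0.01 (adjusted p = 0.822), and Cebpd, the inducible C/EBP member, by -0.54 (adjusted p = 0.0648).

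In 8 of the 21 genes every shSnail array lay under every control array (Il1a, Lif, Il11, Il6st, Il1rap, Socs3, Cebpd and Nfkbiz), beside 4.01% of all clusters, and in 1 (Jak2) over every control array, beside 5.08%. Il1a and Il1rap, given values after these were seen, each differed by -0.62 without passing (adjusted p = 0.0958 and 0.126). Both had means below the 95th percentile of the negative controls. The genes of this list were chosen with earlier results of these data known. Jak2 and Jak1, kinases of the interleukin-6 receptor, and Il1r1, the interleukin-1 receptor, were the brightest of the list and had differences of 0.62 (adjusted p = 0.0969), -0.02 (adjusted p = 0.585) and 0.01 (adjusted p = 0.884). Jak2 passed as higher with the arrays centred on the median of their clusters (adjusted p = 0.0431) or of their negative controls (0.0217).

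**Figure D4:**
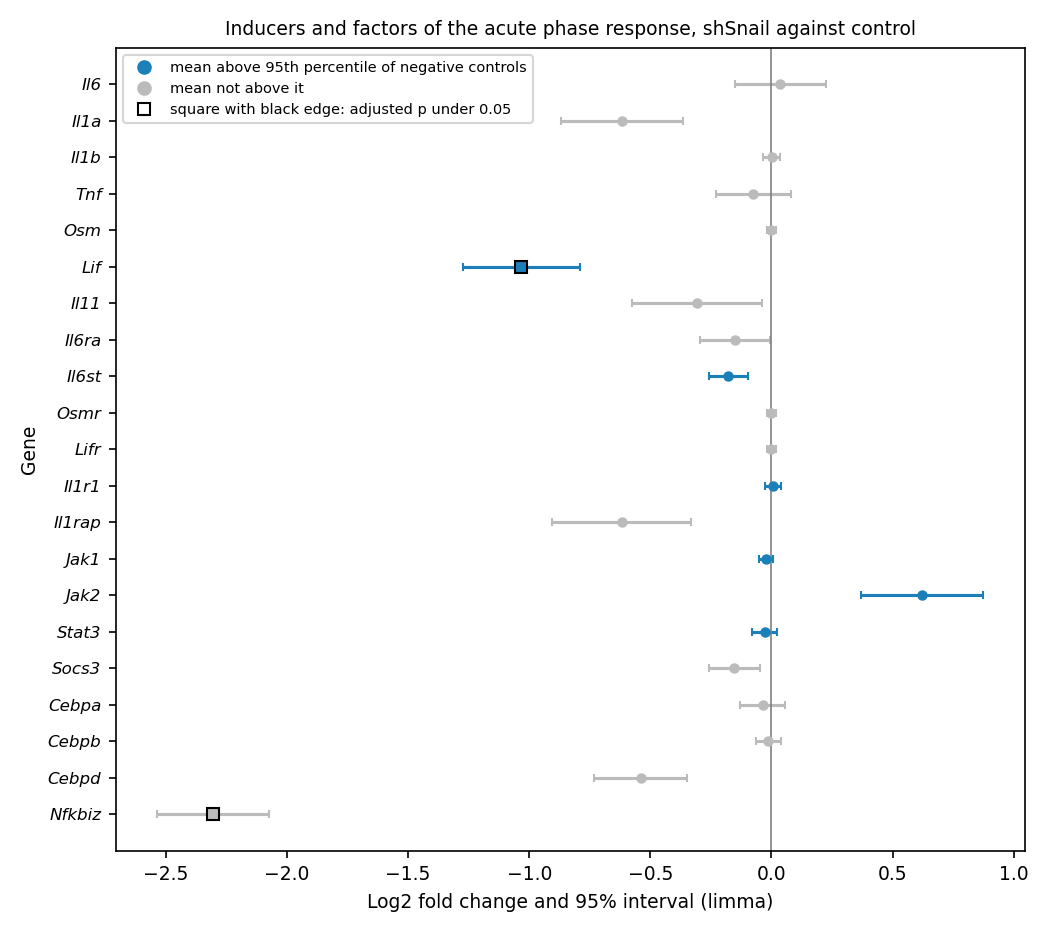
Log2 fold change (shSnail against control, bars: 95% intervals from limma) of 21 inducers, receptors and transcription factors of the acute phase response, in blue where the mean signal exceeds the 95th percentile of the negative controls and in grey where it does not. Nfkbiz (-2.30) and Lif (-1.03), shown as squares, are past the adjusted threshold; Il6, Il1b and Tnf lie near 0.

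Among 15 measured receptors and partners of the secreted proteins, only Mmp9, the gelatinase that Lcn2 binds and protects, passed, with 0 higher and 14 not passing (median -0.01). By the same test, 0.432% of all clusters were called lower and 0.21% higher. Mmp9 read 5.84, 6.03 and 5.37 in control cells, 4.46 and 4.31 with sh1 and 4.42 and 4.38 with sh2 (difference -1.35, SE 0.16, adjusted p = 0.0384). As for Lcn2, neither mean exceeded the 95th percentile of the negative controls. The call passed only without the third control array and was lost without any of the other 6 (adjusted p 0.0169 to 0.166 over the 7). It was not called with sh1 (adjusted p = 0.156) or sh2 (0.0789) alone or with 3 groups (0.0617). In 4 of the 15 genes every shSnail array lay under every control array (Mmp9, Lrp1, Plscr1 and Grn), beside 4.01% of all clusters, and in 0 over it, beside 5.08%. Grn, progranulin, a partner of Slpi, differed by -0.32 (adjusted p = 0.129), and Anxa2 and Tlr4 by 0.01 (adjusted p = 0.665) and -0.01 (adjusted p = 1). Of 10 neutrophil markers, which share cells with Lcn2 and Mmp9 in tissue, 1 (Ly6g) was above the 95th percentile and 8 were below the negative control median, with a summed log2 signal of 45.52 to 46.58 on control arrays and 45.93 to 46.43 on shSnail arrays. Its members did not run together. Ly6g read 7.74 to 8.01 on control arrays and 8.25 to 8.59 on shSnail arrays (difference 0.52, adjusted p = 0.167), and S100a8 read 4.34 to 4.97 and 4.01 to 4.25 (difference -0.46, adjusted p = 0.456).

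The genes whose 7 values ran most like Cp were sought among 8227 genes with a mean above the 95th percentile of the negative controls. They were Neurl3 (Pearson r = 0.998), the neutrophil chemokine Cxcl5 (0.997), D17H6S56E-5 (0.994), Srd5a1 (0.994) and Tmem176b (0.993). Neurl3 averaged 10.48 in control and 8.37 in shSnail cells, and Cxcl5 11.46 and 7.16. Without the filter, over 30137 genes, Neurl3 and Cxcl5 still led and the granulocyte growth factor Csf3 came next (r = 0.995). Csf3 was at background, with means of 4.89 in control and 4.11 in shSnail cells beside a negative control median of 4.94 over all arrays. For Lcn2 the genes most like it were 2210417A02Rik (0.988), Rad51c (0.988), Ivns1abp (0.979), Nrip1 (0.976) and Aldh3a1 (0.974), and without the filter Mocos led (0.989). Cp and Lcn2 correlated at 0.96 over the 7 arrays. The arrays fall into 2 groups, so any pair of genes that differ between the groups correlates, and these values are a description only.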

How the data were processed

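Total RNA of HM-1 cells was hybridised to 7 arrays of the Affymetrix Mouse Transcriptome Array 1.0. The deposited values are log2 signals per transcript cluster, which a service laboratory made for the authors with the Affymetrix Expression Console and Transcriptome Analysis Console; the versions, the background correction, the probe summary and the genome build are not stated in any source used here. All 7 value columns were used. Of 72688 entries, 6918 (5222 of them negative controls) were no transcript clusters and were left out. Array number and signal over the negative controls limit the precision.

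The deposited log2 values were tested without further normalization with limma 3.58.1 in R 4.3.3 (lmFit, eBayes): control against shSnail in 2 groups, and the hairpins in 3 groups sharing 1 spread. P-values were adjusted by Benjamini-Hochberg over 65770 clusters, with calls at adjusted p under 0.05, and no fold minimum. The scripts were tested on simulated data.

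The members and lists were chosen with earlier results of these data known. By rule the text names all members, list genes past the test, the 3 brightest of each list and the 5 genes most like Cp and Lcn2. Genes outside this rule are also named: Snai1, cell type markers and genes whose groups did not overlap. Further ones are Il6, Il1b, Tnf, Stat3, Cebpb, Cebpd, Ltf, Heph, Csf3 and Mocos. Gene names came from the platform annotation, and 30473 clusters had 1 symbol and 2176 several. Promoter sequences came from RefSeq. The alternatives tried were another grouping, a replicate block, filters, normalizations, the methods' analysis of variance and leaving out each array.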

Additional observations from a re-analysis of the deposited data

Results flagged for a closer look

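Of 27 named genes, 10 had a shSnail array that stood apart from the other 3 by Dixon's criterion, which chance meets in about 5% of groups and equal values meet more often. Cp was higher on the first sh2 array (8.52, the others 8.15 to 8.18). Saa3 was lower on the first sh1 array (4.12, the others 4.24 to 4.25), and Hp on the second sh2 array (5.44, the others 5.54). On the second sh2 array Mt1 was at 17.37 (the others 17.22), Slc31a1 at 10.15 (10.22), Anxa2 at 16.14 (16.13) and Spink5 at 5.28 (the others higher by under 0.01). Fth1 was at 16.81 on the first sh2 array (16.71 to 16.72), Jak1 at 12.53 on the first sh1 array (12.54) and Il1r1 at 11.27 on the second sh1 array (11.23). No member differed between the hairpins past the threshold.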

How the results depend on the processing

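The falls of Cp and Lcn2 kept their direction under every alternative, from -2.35 to -2.02 and from -1.63 to -1.31. The number of members lower in shSnail (2) became 1 (Cp) with 3 groups or with the analysis of variance after adjustment, and 1 without any 1 array (Lcn2 without the first control array, otherwise Cp). With the replicate number as a block it was 0 (8 clusters lower and 0 higher in all; Cp -2.23, adjusted p = 0.122), and 0 for sh2; the calls of Nfkbiz (adjusted p = 0.0618), Lif (0.122), Mmp9 (0.0766) and Slc11a2 (0.228) were also lost. The numbers share no stated origin, and the deviations of same-numbered arrays from their group means correlated at -0.365 to 0.192. With 2 arrays per hairpin these deviations mirror each other, so the correlations cannot decide whether the numbers pair the arrays. For sh1 (0 lower) the number was 1 (Cp) with the filter at the 40th percentile, with clusters of 1 symbol, quantile normalization or centring on the cluster median, 2 after centring on the negative controls, and 0 to 1 without 1 array. For sh2 (1 lower) it was 2 with the filter, quantile normalization or the cluster median, 9 after centring on the negative controls, 0 under the analysis of variance, adjusted or at the methods' threshold, and 0 to 2 without 1 array (Cp and Saa2 without the first sh2 array); the number higher was 0 to 1 (Saa2). Between hairpins it was 2 after centring on the negative controls (Orm1 and Slc40a1) and 0 to 1 without 1 array (Saa2). Centring on the negative controls subtracts medians that differ between the groups and hairpins, so it moves all genes of an array alike: Orm1 was equal on all 7 arrays and Slc40a1 on the 4 shSnail arrays. The filter and the 1-symbol setting test fewer clusters. For the other settings the cause was not tested. Of the other named genes, Slc11a2 lost its call in 6 of 11 settings that kept all arrays; Mmp9 lost it in 3 and Lif in 2.

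Centring on the negative controls moved the median of all clusters to -0.21, and relative to that shift no sign below changed: Saa1 -0.18, Tfrc -0.16, Mt1 -0.15, Cd14 -0.0889, Fth1 -0.17, Ftl1 -0.0147, Il1r1 -0.20, Anxa2 -0.20 and Wfdc12 -0.15. Signs of other uncalled genes also turned, for Il1r1 with quantile normalization (-0.0299) and without the second sh1 array (-0.0042), Spink5 with the cluster median (0.0051), Saa1 without the second control array (-0.0401) or the first sh2 array (-0.0091), Tlr4 without the first (0.0289) or second (0.0111) sh1 array, and Saa2 without the second sh2 array (0.058). Without 1 array, the range was -0.0401 to 0.0747 for Saa1, -0.0767 to 0.058 for Saa2, -0.0042 to 0.0103 for Il1r1 and -0.0621 to 0.0289 for Tlr4.

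Over all clusters, 284 were lower and 138 higher. The numbers were 312 and 321 with 3 groups, 403 and 217 with the filter, 592 and 254 with quantile normalization, 391 and 218 with the cluster median, 4109 and 598 after centring on the negative controls, 85 and 35 by the adjusted analysis of variance, and 58 to 132 and 33 to 64 without 1 array. Each member had 1 cluster, so averaging clusters changes nothing. Genes near the negative controls, Lcn2 among them, are limited by signal over background.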
